A study of Homo sapiens with 12 samples.

Results

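The 9 genes described here encode complement components and regulators: C3, C5, C6, C8A, C8B, C9, CFB, CFI and SERPING1. They were taken as the rows whose only gene symbol in the platform annotation is one of these names, with the row of the highest mean over the 12 arrays where a symbol had several, and all 9 were found among 22465 named genes. CFB was the member with several rows (7), and its row was chosen by that mean. The gene names were chosen and not drawn, so counts over them are descriptions. RNA was measured 48 h after transfection on 1 array per sample in 4 groups of 3 arrays: Hep3B cells given an siRNA, Hep3B cells given negative control RNA, Huh7 cells given an siRNA, and Huh7 cells given negative control RNA. Hep3B and Huh7 are established lines from human liver cancer, both grown here in minimum essential medium with fetal bovine serum. The study concerns a long non-coding RNA in liver cancer, whose own level was not analysed here, as no row was matched to it by name. Whether replicate arrays stem from separate cultures is not stated, and the p-values therefore reflect variation among arrays, which may be technical.

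Complement is a cascade of plasma proteins that marks and lyses microbes, and the liver is the main source of most of its soluble parts. The classical, lectin and alternative pathways all lead to cleavage of C3, whose large fragment binds covalently to surfaces, and then to cleavage of C5. The large fragment of C5 gathers C6, C7, C8 and C9 into the membrane attack complex, a pore. Factor B (CFB) is the protease of the alternative pathway convertase, factor I (CFI) cuts the large fragments of C3 and C4 to stop further activation, and C1 inhibitor (SERPING1) blocks the proteases that start the classical and lectin pathways and also those of the contact system. Hepatocyte complement genes are known to respond to inflammatory cytokines and to depend on liver transcription factors.

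Promoter sequences are shown for C5 and CFI, which fell in both lines, and for CFB, which stayed within background, as examples of both kinds. Each runs 5′ to 3′ on the gene's strand from 250 bases before to 50 bases after the annotated start, from RefSeq on GRCh38.p14, and 7 of the 9 members had an entry. The C5 window is chr9:121074816-121075115 on the minus strand, that of CFI chr4:109801950-109802249 on the minus strand, and that of CFB chr6:31945845-31946144 on the plus strand. Capitals mark matches to any of 6 motifs.
C5: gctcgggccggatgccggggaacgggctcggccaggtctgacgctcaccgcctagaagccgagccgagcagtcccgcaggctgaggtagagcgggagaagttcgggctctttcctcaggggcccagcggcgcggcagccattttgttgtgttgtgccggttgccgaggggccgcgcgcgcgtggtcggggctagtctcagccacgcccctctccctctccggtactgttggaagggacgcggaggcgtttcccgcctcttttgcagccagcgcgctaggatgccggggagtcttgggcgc
CFI: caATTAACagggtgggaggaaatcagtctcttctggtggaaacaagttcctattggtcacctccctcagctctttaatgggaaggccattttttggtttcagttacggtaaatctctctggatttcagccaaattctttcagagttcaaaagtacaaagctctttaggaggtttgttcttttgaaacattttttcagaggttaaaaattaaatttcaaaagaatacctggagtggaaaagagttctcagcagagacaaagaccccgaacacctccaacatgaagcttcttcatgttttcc
CFB: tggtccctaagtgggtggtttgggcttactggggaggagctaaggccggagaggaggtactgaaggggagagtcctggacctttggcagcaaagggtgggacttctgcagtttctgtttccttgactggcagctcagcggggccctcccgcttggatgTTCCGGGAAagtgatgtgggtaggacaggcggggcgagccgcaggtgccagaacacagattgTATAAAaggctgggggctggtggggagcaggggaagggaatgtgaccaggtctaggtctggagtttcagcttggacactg
Both strands were searched, and no motif matches overlapped in these windows. The motifs were C/EBP (TTGCNNAA), STAT (TTCNNNGAA), the IL6 response element (CTGGGAA), the HNF1 core (GTTAAT), FOXA (TGTTTAC) and the TATA box (TATAAA). Among 35116 promoters of the same length, 10.5% held the C/EBP letters, 7.66% STAT, 10.8% the IL6 response element, 6.88% the HNF1 core, 3.42% FOXA and 11.5% the TATA box. The C5 window held no match. The CFI window held the HNF1 core on the opposite strand (ATTAAC), 248 bases before the start. CFB held STAT (TTCCGGGAA) 92 bases and a TATA box 30 bases before the start, C6 a C/EBP match 159 bases before it, and C8B a FOXA match 47 bases before it. C8A and C9 had none of these letters. A match is a string of letters and not a measured site.

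Hepatocyte markers were detected in both lines. Of 6 measured hepatocyte markers, 5 lay above background in Hep3B siRNA, 6 in Hep3B control, and 5 in Huh7 siRNA and Huh7 control samples. Background here is the highest mean of 23 background rows, 5.50 on the log2 scale. No endothelial marker (of 5) or fibroblast and stellate marker (of 5) lay above it in any group. Of the macrophage and blood markers CD68 and LYZ did, while PTPRC, CD14, CSF1R and CD163 stayed between 3.37 and 3.68 in all groups. Of 4 cholangiocyte markers EPCAM and SOX9 lay above it in all groups and KRT19 in Huh7. In Huh7 control array 1 the description field gives Hep3B, although all its other labels say Huh7. Over all rows its correlation was 0.985 to 0.993 with Huh7 arrays, against 0.954 to 0.960 with those of Hep3B.

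The members divided into 4 genes above background in both lines, 1 above it in Huh7 only, and 4 within it throughout. C3, C5, CFI and SERPING1 were above background in all 4 groups. C8A was above it in Huh7 cells and below it in Hep3B cells. C6, C8B, C9 and CFB did not reach it in any group, so for these only the measured values are given and no fold.

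**Figure D1:**
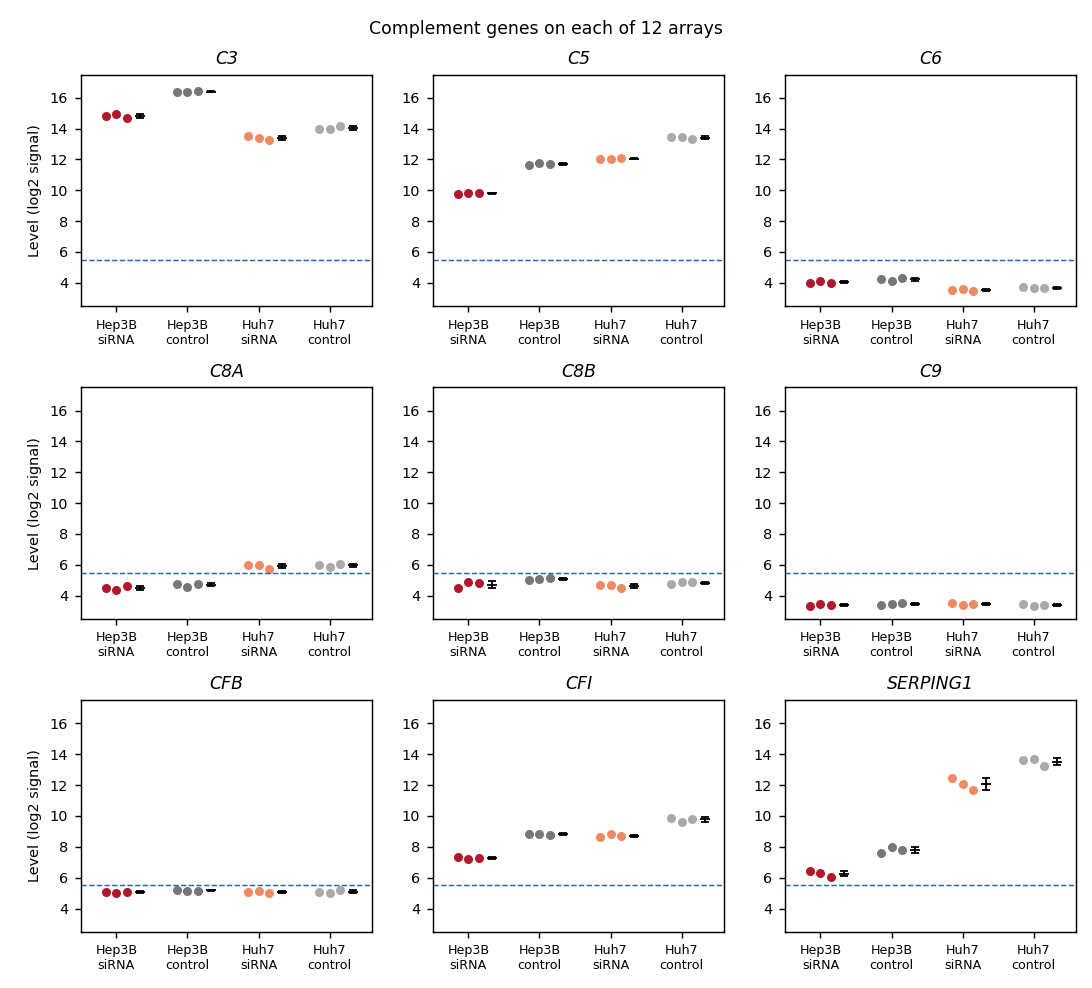
Level of each of the 9 complement genes (quantile normalized log2 signal, y axis) on 3 arrays per group (x axis), with 1 point per array, and the group mean with its SD as the bar to the right. The dashed line is the highest mean of the background rows, 5.50. C3, C5, CFI and SERPING1 sit above it in all groups with every siRNA array below every control array of its line, whereas C6, C8B, C9 and CFB stay under it.

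With the siRNA, the central components C3 and C5 and the regulators CFI and SERPING1 fell in both lines. In Hep3B they were 2.90-fold to 3.70-fold lower than on control arrays, and in Huh7 1.57-fold to 2.72-fold lower. In each line 4 of the 9 members passed the threshold (adjusted p under 0.05), all of them lower. Of all 66212 rows tested, 4.66% were called lower in Hep3B and 3.49% in Huh7. In either direction 10.3% of rows were called in Hep3B and 8.05% in Huh7. Calls were more frequent among the 16870 rows above background in some group, where all 4 of these members lie. A fit of those rows alone called 7154 in Hep3B, 3654 of them higher, and 6258 in Huh7, 3171 of them higher. The median change of the 9 members was -0.35 in Hep3B and -0.23 in Huh7, beside -0.0089 and -0.0098 for all rows.

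C3, the component on which all activation pathways meet, read 14.79, 14.94 and 14.69 on the Hep3B siRNA arrays, against 16.36, 16.36 and 16.45 on the Hep3B control arrays. In Huh7 it read 13.49, 13.39 and 13.26 with the siRNA, against 13.96, 13.95 and 14.19 with control RNA. Every siRNA array lay below every control array of its line, and the gap between groups was wider in Hep3B. The log2 change was -1.59 ± 0.09 in Hep3B (standard error, n = 3 arrays per group, limma adjusted p = 2.78e-06) and -0.65 ± 0.09 in Huh7 (adjusted p = 0.00109).

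C5, the precursor of a chemotactic peptide and of the fragment that starts the membrane attack complex, read 9.78, 9.79 and 9.82 on the Hep3B siRNA arrays, against 11.64, 11.74 and 11.69 on the control arrays. In Huh7 it read 12.04, 12.02 and 12.11 with the siRNA, against 13.46, 13.46 and 13.32 with control RNA. The arrays of each group lay close together and the groups did not overlap in either line. The change was -1.89 ± 0.06 in Hep3B (adjusted p = 1.64e-07) and -1.36 ± 0.06 in Huh7 (adjusted p = 1.94e-06). Ordered by log2 change over the 22465 named rows, C5 stood at place 8 from the lowest in Hep3B and at place 23 in Huh7.

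CFI, the protease that inactivates the large fragments of C3 and C4, read 7.32, 7.23 and 7.29 on the Hep3B siRNA arrays, against 8.86, 8.86 and 8.74 on the control arrays. In Huh7 it read 8.66, 8.80 and 8.69 with the siRNA, against 9.90, 9.62 and 9.80 with control RNA. Here too the groups were apart in both lines. The change was -1.55 ± 0.08 in Hep3B (adjusted p = 2e-06) and -1.06 ± 0.08 in Huh7 (adjusted p = 2.94e-05).

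SERPING1, the serpin that restrains the starting proteases, had the widest spread among the falling members. It read 6.42, 6.28 and 6.07 on the Hep3B siRNA arrays, against 7.59, 7.98 and 7.80 on the control arrays. In Huh7 it read 12.49, 12.09 and 11.68 with the siRNA, against 13.65, 13.68 and 13.26 with control RNA. No siRNA array reached the lowest control array of its line, although the Hep3B siRNA values came near background, where the brightest single background row of siRNA array 1 read 6.81. The change was -1.54 ± 0.20 in Hep3B (adjusted p = 0.000433) and -1.44 ± 0.20 in Huh7 (adjusted p = 0.00095).

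C6, C8A, C8B and C9, the members that join the membrane attack complex after C5, and CFB did not pass the threshold in either line. C8A, the chain of C8 that enters the membrane, read 5.97, 5.97 and 5.74 on the Huh7 siRNA arrays, against 5.96, 5.88 and 6.06 on the Huh7 control arrays, and the groups overlapped. Its change in Huh7 was -0.07, with an interval from -0.28 to 0.14. In Hep3B, where it lay within background, it averaged 4.50 ± 0.14 with the siRNA and 4.70 ± 0.09 with control RNA (SD, n = 3 each). C8B, the chain that docks C8 to the growing complex, averaged 4.72 ± 0.21 on the Hep3B siRNA arrays and 5.07 ± 0.08 on the Hep3B control arrays. Its adjusted p was 0.0644 in Hep3B and 0.269 in Huh7, and the Hep3B value was 0.0363 when only rows above the median level were tested. C6, which joins the complex first after C5, averaged 4.04 with the siRNA and 4.22 with control RNA in Hep3B, and 3.53 and 3.66 in Huh7. C9, the pore-forming subunit, averaged 3.42 with the siRNA and 3.46 with control RNA in Hep3B, and 3.45 and 3.39 in Huh7. Its values lay close to 3.36, the median of the background rows. The siRNA and control arrays did not overlap for C8B and CFB in Hep3B and for C6 and C8B in Huh7, all within background. None of these changes passed (limma adjusted p = 0.484 for CFB in Hep3B and 0.353 for C6 in Huh7). With 3 arrays per group, unrelated groups can also lie apart, and the share of all rows that did so is not given here. CFB averaged 5.06 with the siRNA and 5.17 with control RNA in Hep3B, and 5.06 and 5.09 in Huh7. Its 7 rows, 6 of them named for alternative haplotypes of the major histocompatibility region, had means of 4.90 to 5.10 and changes of -0.14 to -0.11 in Hep3B and -0.03 to 0.07 in Huh7.

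**Figure D2:**
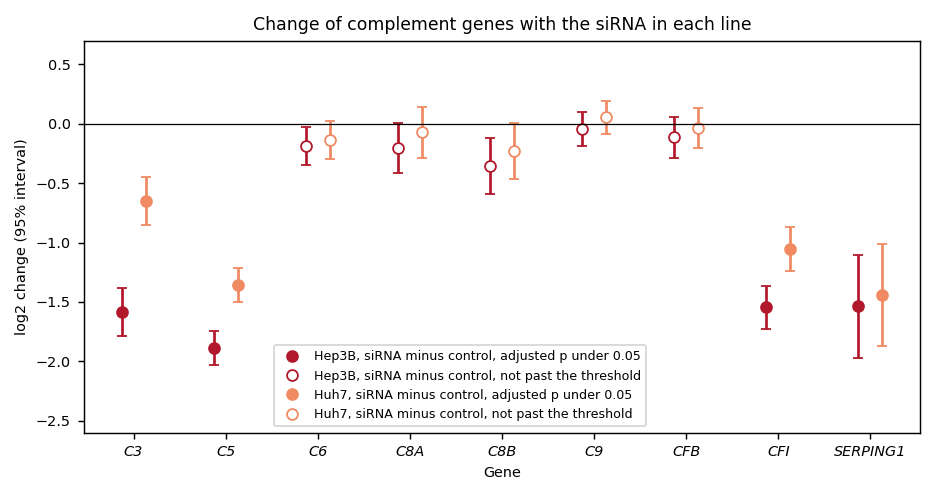
log2 change with the siRNA against control RNA (y axis) for each of the 9 complement genes (x axis), with 95% intervals from the limma fit. Hep3B is dark red and Huh7 light red, and filled points passed the threshold. The 4 filled genes in each line are C3, C5, CFI and SERPING1, and the intervals of C3, C5 and CFI in Hep3B lie wholly below those in Huh7.

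The difference between the lines was tested directly as the Huh7 effect minus the Hep3B effect. C3 and C5 fell less in Huh7 than in Hep3B, which makes 2 of the 9 members, beside 1.87% of all rows called in either direction, with 0.945% of all rows in this direction and 0.927% in the other. Among the 16870 rows above background, 2301 were called in either direction when those rows were fitted alone. For C3 the difference was 0.93 ± 0.13 (adjusted p = 0.00535) and for C5 0.53 ± 0.09 (adjusted p = 0.0153). The C5 difference did not pass after median centring (adjusted p = 0.102), without Hep3B control array 2 (adjusted p = 0.0553) or without Hep3B control array 3 (adjusted p = 0.0513). For CFI the difference was 0.49 ± 0.12 with an adjusted p of 0.0666, which became 0.0181 among rows above background. SERPING1 differed by 0.09 with an interval from -0.52 to 0.71 (adjusted p = 0.944), and that interval holds differences as large as the one of C5.

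Without the siRNA the lines themselves differed in 6 of the 9 members, beside 20.9% of all rows. In a fit of the 16870 rows above background alone, 10778 were called, so such differences were common among detected rows. SERPING1 had the widest gap: it averaged 13.53 ± 0.24 on Huh7 control arrays and 7.79 ± 0.19 on Hep3B control arrays (SD, n = 3 each), a 53.4-fold higher level in Huh7 (log2 difference 5.74 ± 0.20, adjusted p = 3.5e-09). C5 was 3.31-fold higher in Huh7 (log2 difference 1.73) and CFI 1.93-fold higher (0.95), with adjusted p of 6.18e-09 and 5.37e-06. C3 went the other way, with a mean of 14.03 in Huh7 and 16.39 in Hep3B, a log2 difference of -2.36 ± 0.09 (adjusted p = 8.12e-09). C8A was at least 1.39-fold higher in Huh7, counted from the background level because all Hep3B arrays were within it (adjusted p = 1.63e-06). That level is a mean over arrays, and the brightest single background row of Huh7 control array 3 read 6.14, above C8A there (6.06). C6 was also called (adjusted p = 0.000127), at 3.66 in Huh7 and 4.22 in Hep3B, both within background. Within each line, the order of the groups for the 4 falling genes was siRNA below control. Across the 4 groups the order from low to high was Huh7 siRNA, Huh7 control, Hep3B siRNA and Hep3B control for C3, with a gap at each step. For C5 and SERPING1 it was Hep3B siRNA, Hep3B control, Huh7 siRNA and Huh7 control. For CFI, Huh7 siRNA (8.72 ± 0.08) came just below Hep3B control (8.82 ± 0.07), and those neighbours overlapped.

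The rest of the pathway was looked at with a list of 47 other complement genes, 40 of which had a row of their own and 12 of which lay above background in some group. In Hep3B 9 of the 40 were called lower and 3 higher, and in Huh7 5 were lower and 0 higher by limma (1 at an unadjusted p under 0.05), beside 4.66% of all rows called lower and 5.63% higher in Hep3B, and 3.49% lower and 4.56% higher in Huh7. The median change of these 40 was -0.05 in Hep3B and -0.09 in Huh7. In Hep3B the lower count was 5 without control array 2 or siRNA array 3, and the higher count 1 without control array 2 or 3 or siRNA array 1 or 2 and with the replicate block. In Huh7 the lower count was 3 without control array 1, with the values as deposited or after cyclic loess, 2 without control array 3, after median centring or with the Huh7 arrays alone, and 8 among rows above the median level. The Huh7 higher count was 1 with the values as deposited and after median centring, and 0 to 1 when single arrays were left out.

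Of 7 measured fluid phase regulators, 5 were called lower in Hep3B and 2 in Huh7, beside 4.66% and 3.49% of all rows. Of these 7 genes, 6 lay above background in some group, where calls were more frequent than over all rows. Clusterin (CLU), which keeps the late complex from inserting into membranes, read 7.54, 7.41 and 7.29 on the Hep3B siRNA arrays, against 8.54, 8.58 and 8.59 on the control arrays (change -1.16 ± 0.09, adjusted p = 1.31e-05). In Huh7 it changed by -0.60 ± 0.09 (adjusted p = 0.00134), and its groups did not overlap in either line. CPN1, the catalytic subunit of the carboxypeptidase that trims anaphylatoxins, changed by -1.03 ± 0.13 in Hep3B (adjusted p = 0.000394) and by -0.46 in Huh7 (adjusted p = 0.0537). The Huh7 change of CPN1 passed among rows above background (0.0171) or above the median level (0.0303), with no trend (0.0496) and without Huh7 control array 2 (0.0444). C4BPA, the alpha chain of the C4b-binding protein, read 6.57, 6.50 and 5.87 on the Huh7 siRNA arrays, against 6.88, 7.03 and 6.90 on the control arrays. That change of -0.62 (adjusted p = 0.0374) did not pass without Huh7 control array 1, 2 or 3 (adjusted p = 0.0799, 0.114 and 0.0856), with the values as deposited (0.0526), after median centring (0.0735) or cyclic loess (0.051), or with the Huh7 arrays alone (0.147). Its partner C4BPB changed by -0.42 in Hep3B (adjusted p = 0.0359), a call lost when any of the 6 Hep3B arrays was left out (adjusted p from 0.0509 to 0.13), with the values as deposited (0.0614) or after median centring (0.0921). CFHR2, a factor H related protein, averaged 4.82 on Hep3B siRNA arrays, within background, and 5.61 on control arrays (adjusted p = 0.00682).

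In the pathways that start the cascade, C2, the protease of the classical convertase, fell in Hep3B (log2 change -0.55 ± 0.06, adjusted p = 0.000185). In Huh7 its change was -0.23 (adjusted p = 0.0401), which did not pass without Huh7 control array 1, 2 or 3 or siRNA array 1 or 3 (adjusted p from 0.0607 to 0.129). It did not pass with the values as deposited, after median centring or cyclic loess, with averaged probes, with the replicate block or with the Huh7 arrays alone either (adjusted p from 0.0526 to 0.34). C1S, a protease of the C1 complex, was called lower in both lines with all group means within background. They were 4.86 with the siRNA and 5.29 with control RNA in Hep3B. The Huh7 call was lost without control array 3 (adjusted p = 0.0574) or siRNA array 2 (adjusted p = 0.0554), after median centring (0.0854) and with the Huh7 arrays alone (0.115). MBL2, the mannose-binding lectin that starts the lectin pathway, rose in Hep3B: it read 8.37, 8.53 and 8.56 with the siRNA, against 6.95, 7.03 and 7.08 with control RNA. Its change was 1.47 ± 0.20 there (adjusted p = 0.000574) and 0.25 in Huh7 (adjusted p = 0.563, and 0.0134 without siRNA array 3, at a change of 0.54). The difference between the lines had an adjusted p of 0.055, and of 0.0183 among rows above background.

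Of the membrane regulators, CD46, a cofactor with which factor I cuts the C3 fragment on host cells, fell in Huh7 (log2 change -0.50 ± 0.08, adjusted p = 0.00359). In Hep3B its change was -0.30 (adjusted p = 0.0456), a call lost without any 1 of the Hep3B control arrays, siRNA array 2 or siRNA array 3 (adjusted p from 0.0949 to 0.166), with the values as deposited (0.123), after median centring (0.242), with the replicate block (0.0799) and with the Hep3B arrays alone (0.0576). C1QBP, a mitochondrial protein that also binds the globular heads of C1q, rose in Hep3B by 0.45 (adjusted p = 0.0291), which did not pass without Hep3B control array 1, 2 or 3 or siRNA array 1 or 2 (adjusted p from 0.0592 to 0.0895) or with the replicate block (0.0571). The other 3 called genes were called in Hep3B, with C1R (-0.29) and CPN2 (-0.35) lower and CD55 (0.29) higher. C1R was within background in all groups. Genes for the anaphylatoxin receptors C3AR1, C5AR1 and C5AR2 had values within background.

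**Figure D3:**
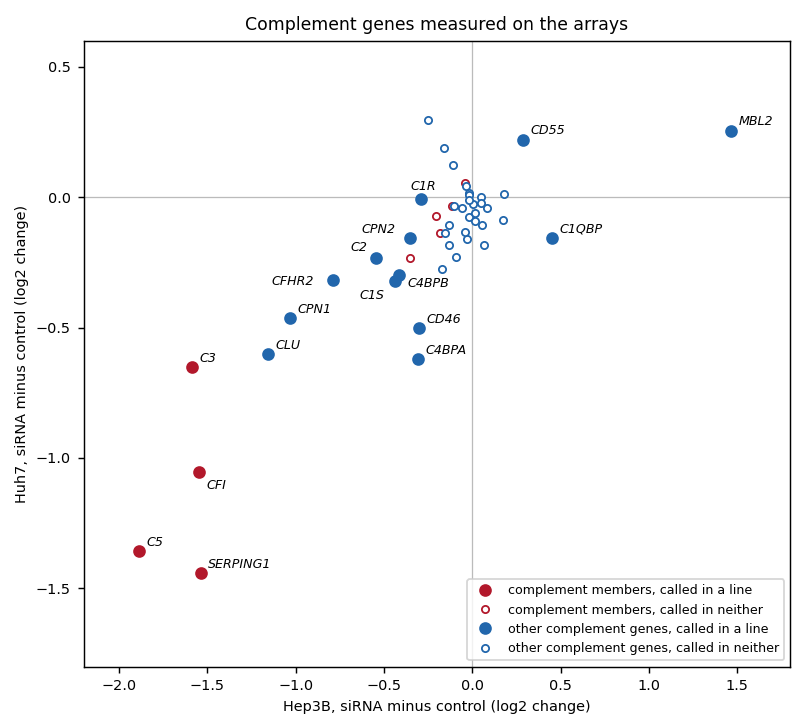
log2 change with the siRNA in Hep3B (x axis) and in Huh7 (y axis) for 49 complement genes, 1 point per gene, with the 9 chosen genes in red and the 40 others in blue. Filled, named points were called in at least 1 line. C3, C5, CFI and SERPING1 lie at the lower left, CLU and CPN1 between them and the centre, and MBL2 alone at the far right with a Hep3B change of 1.47.

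The summed linear signal of the 6 hepatocyte markers, most of it from ALB and APOB, was lower on the siRNA arrays of both lines and was not put to a test. It was 737419 to 798736 on Hep3B siRNA arrays and 1035380 to 1054440 on Hep3B control arrays. In Huh7 it was 295126 to 302536 with the siRNA and 567491 to 590956 with control RNA. Each of the 6 markers had a lower mean with the siRNA in both lines, though APOA1 was above background only in Hep3B control samples. AFP averaged 7.73 with the siRNA and 8.24 with control RNA in Hep3B, and 9.48 and 10.74 in Huh7. For TTR these means were 7.996 and 9.619 in Hep3B, and 9.443 and 10.036 in Huh7. SERPINA1, another of these markers, averaged 6.85 with the siRNA and 6.91 with control RNA in Hep3B, and 6.67 and 6.91 in Huh7. The single markers were not put to a test either. CD68, a macrophage marker, averaged 9.47 with the siRNA and 8.98 with control RNA in Hep3B, and 8.72 and 7.59 in Huh7. The summed signal of the 6 macrophage and blood markers overlapped between siRNA and control arrays, at 2113 to 2767 against 2208 to 2419 in Hep3B and 16662 to 25346 against 20641 to 23171 in Huh7. The part of these marker levels in the changes of the complement genes was not tested. Each sample is bulk RNA of a single cell line, in which fewer expressing cells and less RNA per cell cannot be told apart. Of 15 coagulation factor genes, a like group of secreted liver proteins, 7 were called lower in Hep3B and 7 in Huh7, beside 4.66% and 3.49% of all rows, with 0 called higher by limma in each (1 in Hep3B and 0 in Huh7 at an unadjusted p under 0.05) and medians of -0.21 and -0.32. Of these 15 genes, 11 lay above background in some group, where calls were more frequent than over all rows. The Huh7 count of lower calls among them was 4 without Huh7 control array 1 or 2 and 2 with only the 6 Huh7 arrays in the fit.

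Among 21 genes for regulators of complement transcription in liver, 17 were measured, 11 of them above background in some group. In Hep3B 7 were called higher and 1 lower, beside 5.63% and 4.66% of all rows. In Huh7 3 were called higher and 1 lower, beside 4.56% and 3.49% of all rows. Calls were more frequent among rows above background than over all rows. Of the 11 regulators there, 4 were called higher and 1 lower in Hep3B, and 2 higher and 1 lower in Huh7. ONECUT1, a hepatocyte transcription factor, was the lower one in both lines. It read 13.21, 13.40 and 13.33 on Hep3B siRNA arrays, against 13.89, 14.06 and 14.09 on control arrays, and the groups did not overlap. Its change was -0.70 ± 0.11 in Hep3B (adjusted p = 0.00137) and -1.62 ± 0.11 in Huh7 (adjusted p = 1.07e-05). The Huh7 effect minus the Hep3B effect was -0.91 ± 0.15 (adjusted p = 0.0126). NFKB1, a subunit of the inflammatory factor NF-kB, was higher with the siRNA in both lines, by 0.41 ± 0.08 in Hep3B (adjusted p = 0.00656) and 0.61 ± 0.08 in Huh7 (adjusted p = 0.000775). STAT3, which carries the interleukin-6 signal, was higher by 0.40 ± 0.06 in Huh7 (adjusted p = 0.00198). In Hep3B its change was 0.26 (adjusted p = 0.0222), not past the threshold without Hep3B control array 1 or 2 or any siRNA array (adjusted p from 0.0518 to 0.101) or with the Hep3B arrays alone (0.0519). RELA changed by 0.53 in Hep3B (adjusted p = 0.0167), which became 0.05 to 0.0725 without control array 1, 2 or 3 or siRNA array 2 or 3. FOXA2 rose by 0.42 in Hep3B (adjusted p = 0.00423) and changed by -0.11 in Huh7 (adjusted p = 0.517). The difference of its effect between the lines was -0.52 (adjusted p = 0.0334). That difference did not pass with the values as deposited (0.0795), after median centring (0.14) or cyclic loess (0.0559), or without most single arrays. IRF1 in both lines, and FOXA3 and IL6R in Hep3B, were called with group means within background. The Hep3B call of IRF1 was lost without control array 1 or 2 or siRNA array 3 (adjusted p from 0.0561 to 0.0686) and with the Hep3B arrays alone (0.0571). Its Huh7 call was lost without any Huh7 array but siRNA array 2 (0.0687 to 0.107), with the replicate block (0.0507) and with the Huh7 arrays alone (0.113). The IL6R call was lost without Hep3B control array 1 or 3 or siRNA array 2 or 3 (0.0535 to 0.0843) and with the Hep3B arrays alone (0.0619). The Hep3B count of higher calls was 3 without control array 1 or siRNA array 3, and 4 without control array 2 or siRNA array 2, among rows above background or with the Hep3B arrays alone. CEBPA, a liver factor that acts on many such promoters, did not pass in either line (adjusted p = 0.306 in Hep3B and 0.932 in Huh7).

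The named genes whose values followed C3 and C5 most closely were found by the root mean square difference of the 12 array values after each row's mean was taken off, over 7893 named rows above background. For C3 they were ADAM22 (0.09), a membrane protein without protease activity, CPD (0.20), carboxypeptidase D, and TARBP1 (0.22), an RNA methyltransferase. ADAM22 had changes of -1.57 in Hep3B and -0.63 in Huh7. For C5 they were FABP5P7 (0.23), FABP5P1 (0.23) and CPB2 (0.28). The first pair are rows of pseudogenes of the fatty acid binding protein FABP5, for which near-identical copies make the source of the signal uncertain. CPB2, a plasma carboxypeptidase that trims C5a as well as fibrin, had changes of -1.35 in Hep3B and -1.29 in Huh7.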

How the data were processed

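Total RNA of 12 samples was measured with 1 array each. The deposited table holds log2 values (read from their range), and per the submitters' processing notes Agilent Feature Extraction 10.7.1.1 was used, while the labels' protocols name Affymetrix labelling and Cy3. How probes were summarised or arrays normalized is not given in the sources used here. Of 70523 rows, 2995 that were not transcript clusters were left out, and 1 row was kept per symbol (highest mean), leaving 66212. Rows were named from the platform annotation (23781 probes with 1 symbol, 1543 with several). Array medians differed by 0.124, and arrays were quantile normalized together with the 23 background rows (limma 3.58.1, R 4.3.3). All levels and changes printed are on this log2 scale. A linear model with 1 mean per group over 12 arrays (8 residual degrees of freedom) was followed by empirical Bayes with a trend, and two-sided p-values received Benjamini-Hochberg adjustment across every row, separately in 4 comparisons. The procedure was tested on simulated data. The number of arrays limits the precision. The members and lists were chosen with earlier results of these data known. Named genes were all 9 members, up to 10 other complement genes called in a siRNA comparison by size of change, called transcription regulators, and 3 nearest rows each for C3 and C5. The receptor genes, CEBPA and the cell type markers printed were named outside that rule. Alternatives tried were no normalization, median centring and cyclic loess, 2 filters on low rows, averaging a gene's probes, a fit with no trend, with array weights or with a replicate block, a fit to the compared groups alone, and omission of each array in turn. Figures used Python 3.11.15 with matplotlib 3.10.9.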

Additional observations from a re-analysis of the deposited data

Results flagged for a closer look

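The siRNA effect differed between the lines, by the test of the difference itself, for 3 complement genes described above. The Huh7 effect minus the Hep3B effect was 0.93 ± 0.13 for C3 (adjusted p = 0.00535), 0.53 ± 0.09 for C5 (adjusted p = 0.0153) and 0.55 ± 0.12 for CLU (adjusted p = 0.0482), each smaller in Huh7. The CLU difference passed in the leave-one-out fits only without Hep3B siRNA array 1 or without Huh7 siRNA array 3. Its adjusted p was 0.0929 after median centring, 0.0566 after cyclic loess and 0.081 with the replicate block.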

How the results depend on the processing

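The count of members called lower was 4 in each line under every alternative run, except 5 in Hep3B (with C8B) among rows above the median level. Called member results stayed on their side of the threshold in 262 of 265 cases, the other 3 being the C5 difference. The call counts over all rows changed by over 1.5 times as follows, causes not tested. The difference between lines had 1240 calls, 721 after median centring, 1957 among rows above the median level, 2301 among rows above background and 614 to 1326 when 1 array was left out. Huh7 had 5328 calls, and 2680 with only its own 6 arrays. The share of higher calls was 54.7% in Hep3B and 56.7% in Huh7, and 65.9% and 70.1% after median centring. Changes near 0 and not called turned sign after median centring for C8A (0.0073) and CFB (0.0202) in Huh7 and CD46 between control arrays (0.0029), and with deposited values for the IRF1 difference (0.0049). Leaving out 1 array gave -0.117 to 0.0029 for C8A, -0.0937 to 0.0216 for CFB and -0.0883 to 0.162 for RELA in Huh7, and -0.106 to 0.297 for the SERPING1 and -0.0646 to 0.0299 for the IRF1 difference.

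With a replicate block, calls numbered 6327 in Hep3B, 4880 in Huh7, 894 in the difference and 13437 between control arrays. The call of no member changed, while CD46 and C1QBP in Hep3B, C2 and IRF1 in Huh7 and the CLU and FOXA2 differences no longer passed. Same-numbered arrays of a line correlated in their deviations at r from 0.0981 to 0.183 in Hep3B and -0.234 to 0.142 in Huh7, where 1 pair was positive. Within its line, 7 of 12 arrays correlated best with the array of their own number. The labels do not say what the numbers mark, and no pairing was assumed.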
